A study of Mus musculus with 12 samples.

Results

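The 10 genes described here are 8 mouse Toll-like receptor genes (Tlr1, Tlr2, Tlr3, Tlr4, Tlr6, Tlr7, Tlr8 and Tlr9) and 2 co-receptor genes of the lipopolysaccharide receptor, Cd14 and Ly96. They were chosen by name, through the accession of each array probe, and the brightest probe stood for a gene. All 10 are on the array, with 11 probes, and 9 of them are among the 23109 genes or transcripts that were tested. Tlr8 was too dim to be tested and is given by its levels.

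Alveolar macrophages, the macrophages that live on the airway side of the lung, were collected by bronchoalveolar lavage and sorted by flow cytometry. They came from female C57BL/6 mice aged 8 to 9 weeks, and each of the 4 genotypes had 3 animals: wild type (WT), mice lacking Bach1 (Bach1 KO), mice lacking Bach2 (Bach2 KO) and mice lacking both (DKO, labelled DD). Bach1 and Bach2 are related transcriptional repressors that bind DNA as dimers with small Maf proteins. The labels name no Cre, promoter or cell type for the deletions, and each array held RNA of 1 mouse, amplified before labelling with Cy3. A level is the log2 signal of a probe relative to the 75th percentile of its own array, so 0 is that percentile and each step of 1 is a 2-fold step in signal. Levels are given for the same gene across mice and are not compared between genes. Groups of mice (n = 3) are summarised by mean ± SD, differences between genotypes carry their SE after the ± sign, and a gene rose or fell where its adjusted p was under 0.05.

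The receptors work in pairs or with helper proteins. Tlr2 pairs with Tlr1 to bind triacylated lipopeptides and with Tlr6 to bind diacylated ones. Tlr4 binds lipopolysaccharide together with Ly96, also called MD-2, after Cd14 has handed the lipid over, while Tlr3, Tlr7, Tlr8 and Tlr9 sit in endosomes and bind nucleic acids. Most of these receptors signal through the adaptor Myd88, whereas Tlr3 signals through Ticam1 and Tlr4 uses both, and the pathways end in NF-kB, mitogen-activated kinases and interferon regulatory factors. Alveolar macrophages meet inhaled microbes first and are known for a restrained response to them.

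All 12 arrays were used, with 45.2% (Bach1 KO replicate 3) to 72.4% (Bach2 KO replicate 3) of 59305 spots (controls left out) well above background, 0 saturated spots and correlations of 0.940 to 0.988 between arrays of one genotype. Slide 1 held 8 arrays: all WT, all Bach1 KO and Bach2 KO replicates 1 and 2. Bach2 KO replicate 3 lay on a slide of its own in this set, and the 3 DKO arrays lay on another that was scanned on a later day, so DKO and its slide cannot be told apart. The Bach1 probe read 3.94 ± 0.31 in WT, 2.52 ± 0.08 in Bach1 KO, 3.94 ± 0.16 in Bach2 KO and 2.50 ± 0.69 in DKO, and the 6 mice labelled as lacking Bach1 lay below the other 6. The Bach2 probe was dim (-8.11 to -2.17 in WT, -5.29 to -3.71 in Bach2 KO), and it does not check the Bach2 labels. The 20 alveolar macrophage markers were well above background on every array, except Cidec on 2 DKO arrays. Their summed linear level (1 is the array's 75th percentile) was 2018 to 2482 in WT, 1443 to 2325 in Bach1 KO, 598 to 821 in Bach2 KO and 474 to 736 in DKO. By the test used below, 15 of 20 were lower in Bach2 KO than in WT, beside 24.8% of all genes tested. Dendritic cell markers, B cell markers and others also differed and are given further below. In RNA of a sorted population, fewer cells of a type and less RNA per cell cannot be told apart.

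Promoter windows from RefSeq (GRCm38.p6) were searched for 8 start sites of 6 members: Tlr1, Tlr2, Tlr3, Tlr6, Tlr8 and Tlr9. Cd14 was left out of the search, and no window was at hand for Tlr4, Tlr7 and Ly96. The 5 short motifs named in this paragraph were searched on both strands in the 250 bases before each start. The core shared by AP-1 and BACH sites, TGANTCA, was found in 1 of the 8 windows, that of Tlr9, where it begins 58 bases before the start, and 6.75% of all 32851 promoter windows hold it. The same Tlr9 window holds the antioxidant response element core TGACNNNGC 77 bases before the start (10.2% of all windows) and the PU.1 and ETS core GAGGAAG 112 bases before it (10.6%). The 2 stretches below are shown because Tlr1 is the member that rose and Tlr9 is the searched member with the BACH core, which is in capitals. That of Tlr1 is the 5′ 208 bases of the window of its first listed start, on the minus strand at chr5:64933601-64933808, and that of Tlr9 is the whole window on the plus strand at chr9:106222348-106222597.
Tlr1: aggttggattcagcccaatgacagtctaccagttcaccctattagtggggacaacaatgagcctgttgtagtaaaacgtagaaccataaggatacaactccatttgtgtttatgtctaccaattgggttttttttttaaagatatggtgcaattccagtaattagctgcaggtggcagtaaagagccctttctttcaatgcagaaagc
Tlr9: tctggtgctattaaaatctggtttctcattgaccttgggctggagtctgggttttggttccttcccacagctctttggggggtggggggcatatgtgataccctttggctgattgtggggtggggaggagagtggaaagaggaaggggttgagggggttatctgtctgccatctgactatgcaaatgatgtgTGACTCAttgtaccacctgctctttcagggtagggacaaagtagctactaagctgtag
Neither start site of Tlr1 had the BACH core in its window, and the window of the first listed one held a GAGGAAG 23 bases before the start. The Tlr2 window had an NF-kB core 172 bases before its start (17.6% of all windows), the Tlr3 window had 2 such matches, and the interferon-stimulated response element (2.98%) was found in 1 of the windows of Tlr6. These are matches of letters, and binding was not measured here.

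In mice lacking Bach2, Tlr1 rose and Tlr2, Tlr7 and Cd14 fell against WT, while the other 5 members tested did not pass. Tlr1, the Tlr2 partner for triacylated lipopeptides, was 91.4-fold higher in Bach2 KO, or 57.1-fold without the WT mouse that was not above background and 29.1-fold with a normexp background correction. Tlr2 was 2.57-fold lower, Cd14 1.91-fold lower and Tlr7 1.70-fold lower. In this comparison 37.1% of all genes tested were called, 12.3% higher and 24.8% lower, so 4 of 9 members called is a share near that of the whole array. The median difference was -0.53 over the 9 members and -0.31 over all genes. Loss of Bach1 alone called 0 of the 9 members by limma, with 0 at an unadjusted p under 0.05, beside 0.0606% of all genes (0.0173% higher, 0.0433% lower). Loss of both factors kept Tlr1 higher and Tlr2 and Tlr7 lower than in WT, and this was 3 of 9 members beside 27.1% of all genes (10.5% higher, 16.6% lower), with a median of -0.35 over the members and -0.28 over all genes.

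**Figure D1:**
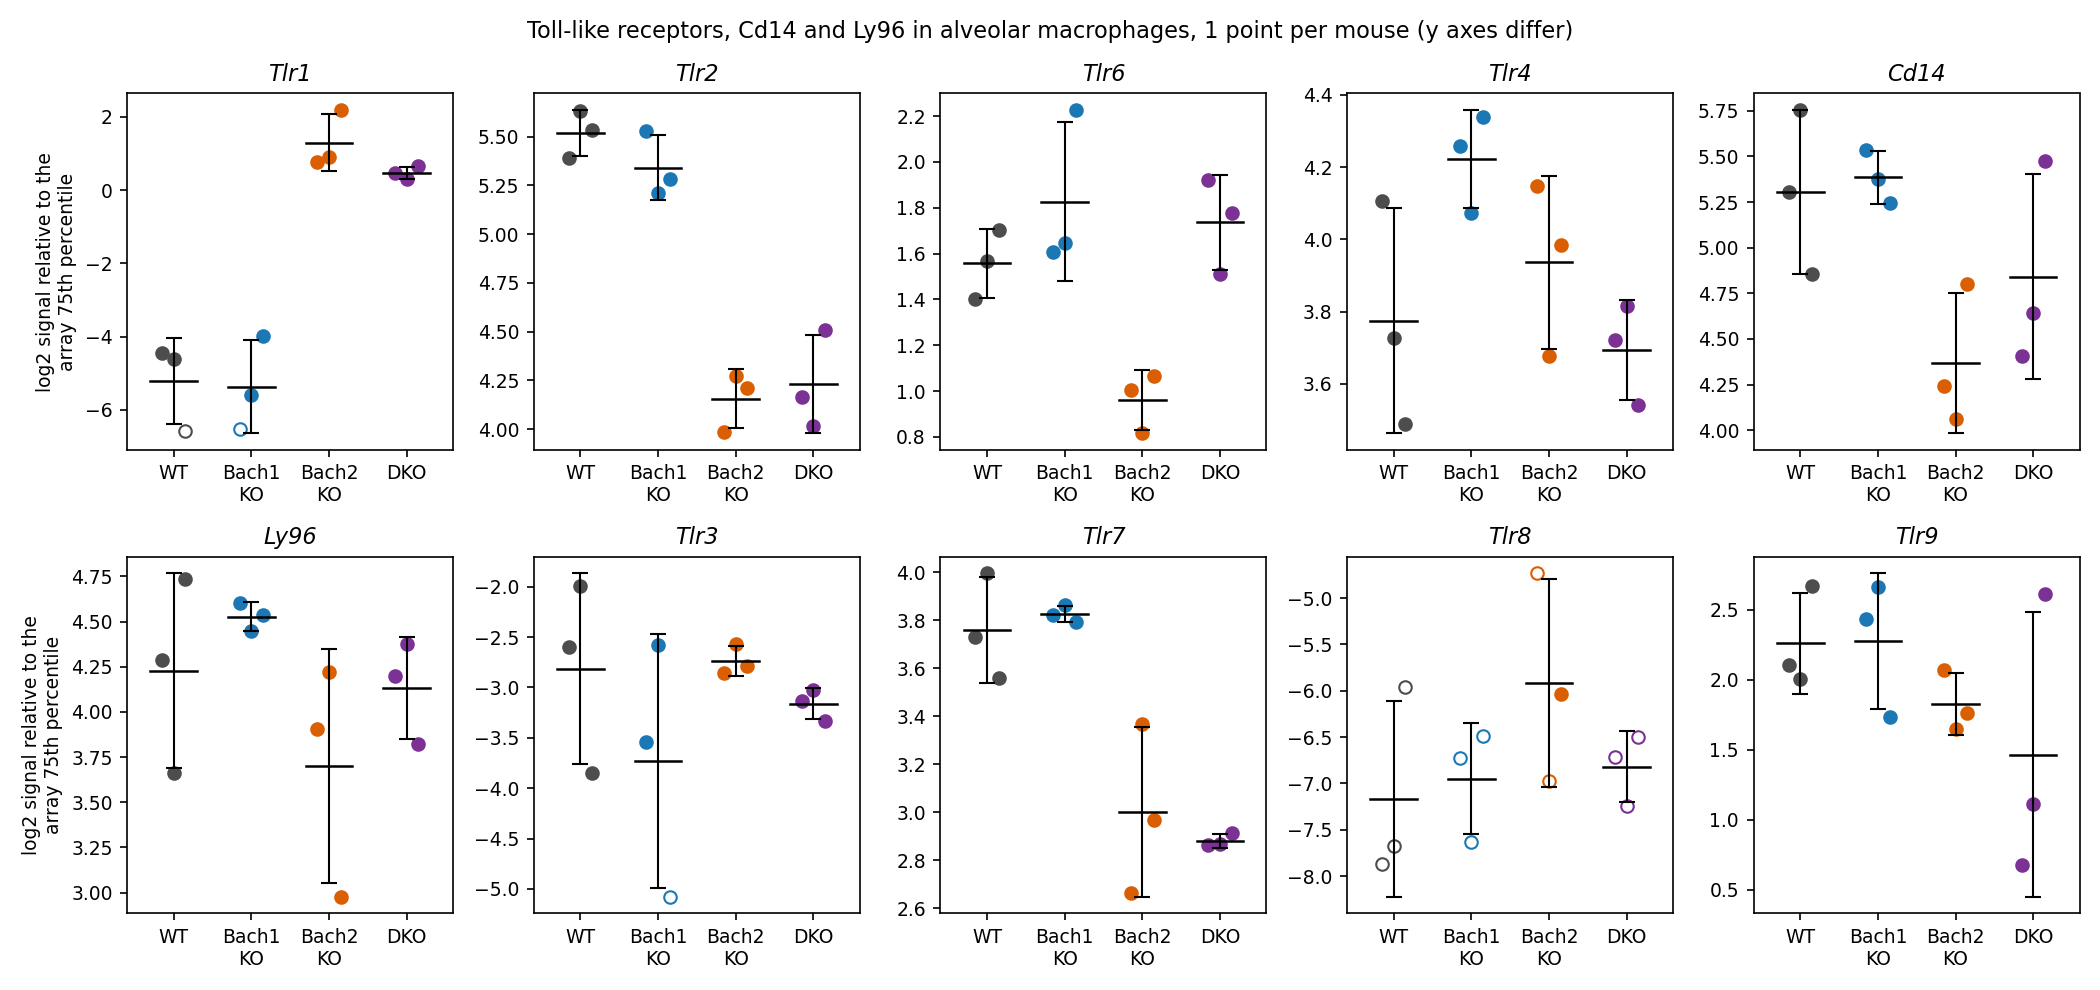
Levels of the 10 genes (y axis, log2 signal relative to the array's 75th percentile, a separate scale per gene) in the 4 genotypes (x axis). Each point is 1 mouse, open where its probe was not well above background, and bars are the mean and SD of 3 mice. Tlr1 lies between 0.31 and 2.19 in the 6 mice without Bach2 and between -6.58 and -3.99 in the 6 mice with it.

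Tlr1 was near the floor of the array wherever Bach2 was present. Its levels were -4.46, -4.62 and -6.58 in WT and -6.51, -5.61 and -3.99 in Bach1 KO, and WT replicate 3 and Bach1 KO replicate 1 were not well above background. They were 0.78, 0.91 and 2.19 in Bach2 KO and 0.45, 0.31 and 0.65 in DKO. The lowest mouse without Bach2 thus stood above the highest mouse with it, and the 2 genotypes with Bach2 overlapped each other. Tlr1 rose by 6.51 ± 0.69 in Bach2 KO (limma, Benjamini-Hochberg adjusted p = 4.2e-05). In DKO it was 5.69 ± 0.69 higher than in WT (limma adjusted p = 9.29e-05) and 5.84 ± 0.69 higher than in Bach1 KO (7.82e-05). The DKO level was 0.83 ± 0.69 below that of Bach2 KO, without overlap between the 6 mice, and did not pass (limma adjusted p = 0.537). The size moved with single arrays and with the background correction: without WT replicate 3 the Bach2 KO difference was 5.83 and the DKO difference 5.01, without Bach1 KO replicate 3 the DKO difference from that genotype was 6.53, and a normexp correction gave 4.86 in Bach2 KO. It passed in all 25 alternatives of the Bach2 KO comparison, which are refits of the same arrays. Tlr1 entered the test only through Bach2 KO and DKO, the genotypes where it is high and every array was above background. Requiring all 12 arrays to be above background gave it no value, so that filter is not among the 25.

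Tlr2, the lipopeptide receptor common to both pairs, moved the opposite way. The WT levels were 5.39, 5.63 and 5.53, and those of Bach1 KO were 5.53, 5.21 and 5.28. In Bach2 KO they were 3.99, 4.27 and 4.21, and in DKO 4.16, 4.02 and 4.51. Both genotypes without Bach2 lay below every mouse with it, while WT overlapped Bach1 KO and Bach2 KO overlapped DKO. Tlr2 fell by 1.36 ± 0.20 in Bach2 KO (limma adjusted p = 0.000343) and by 1.29 ± 0.20 in DKO against WT (0.000485). It fell by 1.11 ± 0.20 in DKO against Bach1 KO (limma adjusted p = 0.00145). The fall in Bach2 KO passed in 25 of 26 alternatives and failed with no scaling between arrays (-0.66, adjusted p = 0.0708).

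Tlr6, which completes the pair for diacylated lipopeptides, lies next to Tlr1 in the genome and did not pass in any comparison. Its levels were 1.40, 1.57 and 1.70 in WT, 1.61, 1.65 and 2.23 in Bach1 KO, 1.0, 0.81 and 1.06 in Bach2 KO and 1.92, 1.51 and 1.78 in DKO. Bach2 KO was the one genotype set apart, below the other 9 mice, and the other 3 genotypes overlapped. The difference from WT, -0.60 ± 0.24, did not pass (limma adjusted p = 0.0732), but passed with scaling to the array median (-0.82, adjusted p = 0.0396) and with array quality weights (-0.49), and with no scaling between arrays it was 0.10. DKO exceeded Bach2 KO by 0.78 ± 0.24 (limma adjusted p = 0.100). That comparison called 0 of 9 members by limma and 1 at an unadjusted p under 0.05, which was Tlr6, beside 3.54% of all genes called (1.43% higher, 2.1% lower).

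**Figure D2:**
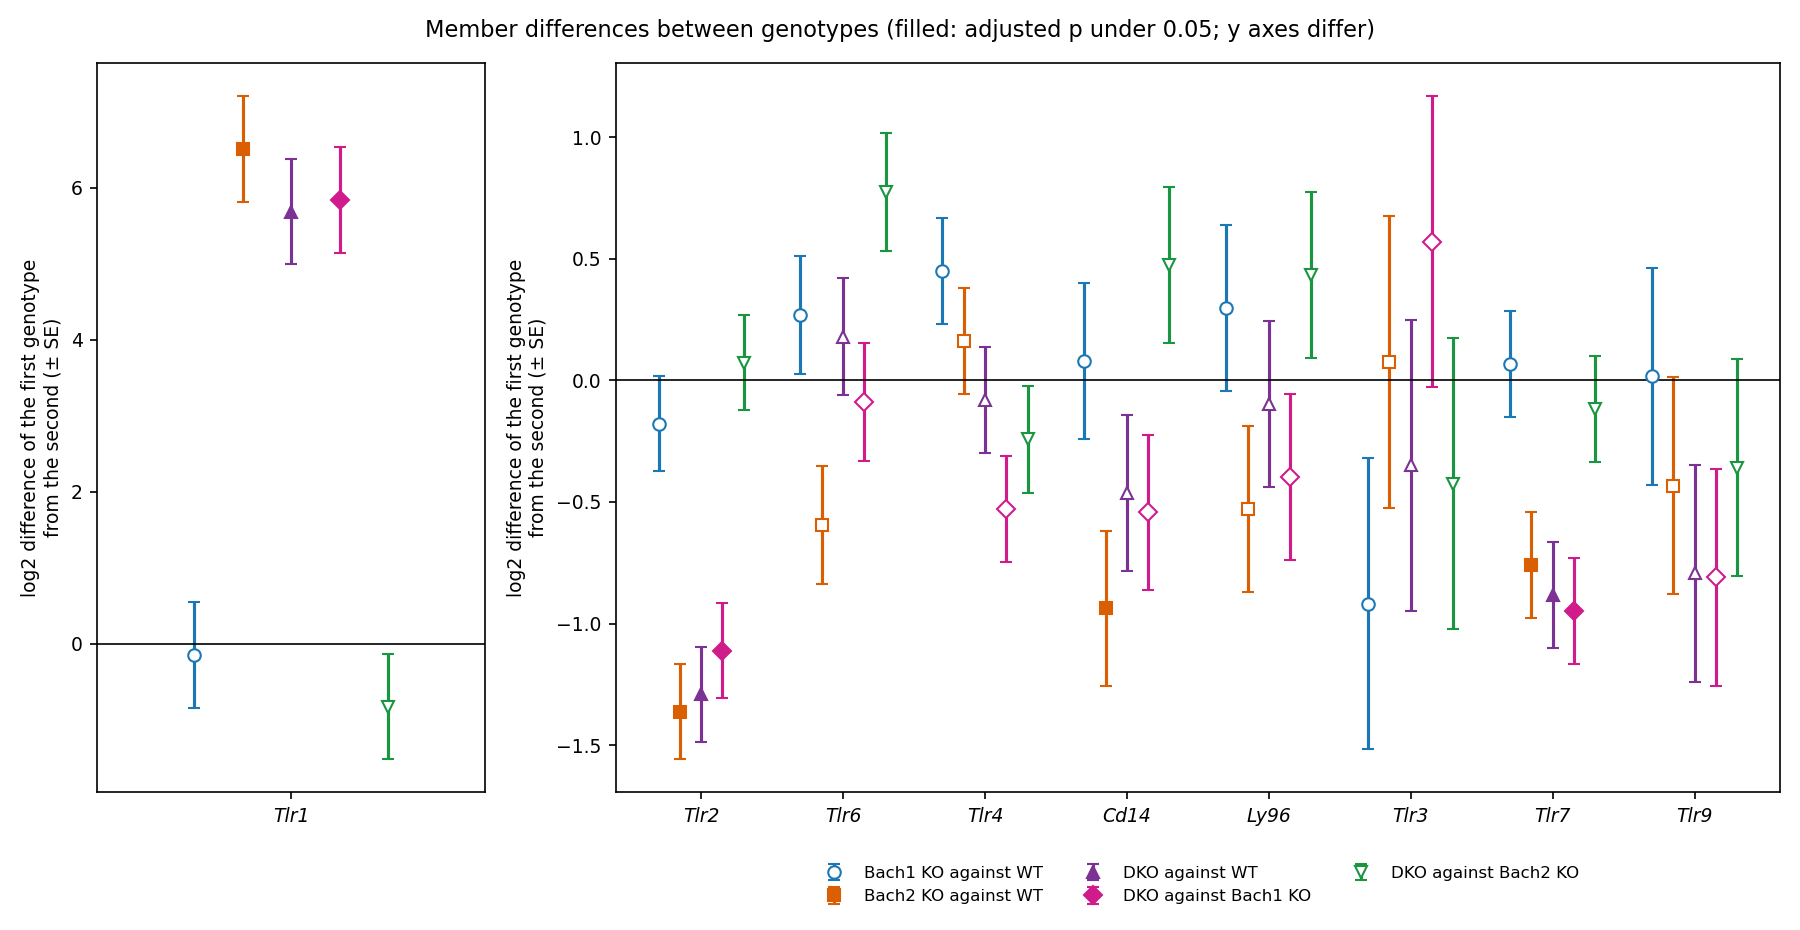
Differences of the 9 tested members (y axis, log2, first genotype from second) in 5 comparisons between genotypes, with Tlr1 on its own scale. Symbols are estimates from 3 mice per genotype with their SE, filled where the adjusted p was under 0.05. The filled symbols are Tlr1 above 0, Tlr2 and Tlr7 below 0 in all 3 comparisons of a genotype without Bach2 with one that has it, and Cd14 in Bach2 KO against WT.

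The lipopolysaccharide receptor itself showed no called change. Tlr4 read 4.11, 3.73 and 3.49 in WT, 4.26, 4.07 and 4.34 in Bach1 KO, 4.15, 3.68 and 3.98 in Bach2 KO and 3.72, 3.82 and 3.54 in DKO. Its neighbours in the order of means (Bach1 KO, Bach2 KO, WT, DKO) overlapped throughout. The Bach2 KO difference was 0.16 ± 0.22 (limma adjusted p = 0.588), and it was -0.06 with scaling to the array median but 0.86 with no scaling, where it passed (adjusted p = 0.0456). DKO was 0.53 ± 0.22 below Bach1 KO with no overlap (limma adjusted p = 0.0968). The interaction, which asks whether losing both factors differs from the sum of the single losses, called 0 of 9 members by limma, and 1, Tlr4 at -0.69, had an unadjusted p under 0.05 (0.0458), beside 0.684% of all genes called (0.0995% higher, 0.584% lower).

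Cd14, the surface protein that transfers lipopolysaccharide to Tlr4 and Ly96, was lower in Bach2 KO. It read 5.30, 5.76 and 4.86 in WT, 5.54, 5.37 and 5.24 in Bach1 KO, 4.24, 4.06 and 4.80 in Bach2 KO and 4.41, 4.64 and 5.47 in DKO. The highest Bach2 KO mouse lay just below the lowest WT mouse, and DKO replicate 3 lay among the WT mice. Cd14 fell by 0.94 ± 0.32 in Bach2 KO (limma adjusted p = 0.0382), and in DKO the difference from WT was -0.46 ± 0.32 (0.295). The call in Bach2 KO held in 13 of 26 alternatives and was lost without WT replicate 1 (adjusted p = 0.0866), WT replicate 2 (0.114), Bach2 KO replicate 1 (0.105) or Bach2 KO replicate 2 (0.121). It was also lost with quantile normalization (-0.29), no scaling (-0.24), normexp (-0.84), no filter on dim probes, eBayes without a trend, only the arrays of the groups compared, the replicate block and stricter thresholds.

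Ly96, the lipid-binding subunit of the Tlr4 complex, did not pass in any comparison. Its levels were 4.28, 3.66 and 4.74 in WT, 4.60, 4.45 and 4.53 in Bach1 KO, 3.90, 4.22 and 2.98 in Bach2 KO and 4.20, 4.38 and 3.82 in DKO. All neighbours in the order of means overlapped, and Bach2 KO replicate 3 was the lowest mouse. The Bach2 KO difference of -0.53 ± 0.34 did not pass (limma adjusted p = 0.244).

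Among the endosomal receptors, Tlr7, which senses single-stranded RNA, was the one that fell. Its levels were 3.73, 4.0 and 3.56 in WT, 3.82, 3.86 and 3.79 in Bach1 KO, 2.66, 3.37 and 2.96 in Bach2 KO and 2.86, 2.87 and 2.91 in DKO. The 6 mice without Bach2 lay below the 6 mice with it. Tlr7 fell by 0.76 ± 0.22 in Bach2 KO (limma adjusted p = 0.018), by 0.88 ± 0.22 in DKO against WT (0.0112) and by 0.95 ± 0.22 in DKO against Bach1 KO (0.00782). It passed in 19 of 26 alternatives in Bach2 KO, and not without Bach2 KO replicate 1 (-0.59, adjusted p = 0.0802) or on slide 1 alone (-0.74, adjusted p = 0.0807). The mean of its 2 probes gave -0.88 in Bach2 KO (limma adjusted p = 0.00619), and no scaling gave -0.06 there (0.895). In DKO against WT Tlr7 did not pass with quantile normalization (-0.65, limma adjusted p = 0.0692) or with no scaling (-0.44, 0.343). In DKO against Bach1 KO it passed with quantile normalization (-0.77, limma adjusted p = 0.0345) and not with no scaling (-0.65, 0.153).

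Tlr9, which binds unmethylated CpG DNA, read 2.11, 2.0 and 2.67 in WT, 2.43, 2.66 and 1.73 in Bach1 KO, 2.07, 1.65 and 1.76 in Bach2 KO and 0.67, 1.11 and 2.61 in DKO. All 4 genotypes overlapped their neighbours, and DKO held both the lowest mice and one of the highest. The difference from WT was -0.43 ± 0.45 in Bach2 KO (limma adjusted p = 0.469) and -0.79 ± 0.45 in DKO (0.202). Without DKO replicate 3 it was -1.37 against WT (adjusted p = 0.0157) and -1.38 against Bach1 KO (0.0154), so that 1 mouse decides both calls.

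Tlr3, the receptor for double-stranded RNA, was dim and scattered. It read -2.60, -1.99 and -3.85 in WT, -3.54, -2.58 and -5.08 in Bach1 KO, -2.86, -2.57 and -2.79 in Bach2 KO and -3.13, -3.02 and -3.33 in DKO, and Bach1 KO replicate 3 was not well above background. WT spans the range of both genotypes without Bach2, and the Bach2 KO difference was 0.08 ± 0.60 (limma adjusted p = 0.932). Tlr8, a receptor for products of RNA breakdown that lies next to Tlr7 in the genome, was well above background on 1 of 12 arrays, Bach2 KO replicate 3, and its levels ran from -7.87 to -4.73. With no filter on dim probes its Bach2 KO difference was 1.26 ± 0.66 (limma adjusted p = 0.224).

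The order of genotypes was alike for the members that passed in more than 1 comparison: WT and Bach1 KO stood together and apart from Bach2 KO and DKO. Every call of a member was between a genotype without Bach2 and one with it, so this split follows largely from the choice of members. For Tlr1 the order of means was Bach2 KO, DKO, WT and Bach1 KO, for Tlr2 WT, Bach1 KO, DKO and Bach2 KO, and for Tlr7 Bach1 KO, WT, Bach2 KO and DKO. In DKO against Bach1 KO, 3 of 9 members passed beside 26.2% of all genes (10.7% higher, 15.5% lower). The comparisons share WT or DKO mice, so they do not count as separate evidence. WT replicate 3 was the lowest WT mouse for Tlr1, Tlr3, Tlr4, Tlr7 and Cd14, and Bach1 KO replicate 3 the lowest of its genotype for Tlr3, Tlr7, Tlr9 and Cd14. With both left out, 4, 3 and 3 members passed in Bach2 KO against WT, DKO against WT and DKO against Bach1 KO.

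Scaling between arrays matters here because the median of all genes moved with it. Under the 75th percentile the median of all genes in Bach2 KO against WT was -0.31, with 33.3% of called genes higher. It was -0.53 with the array median (25.6% higher), -0.16 with quantile normalization (44.5%) and 0.39 with no scaling (68.8%). In DKO against WT 38.9% of called genes were higher, or 63.0% with no scaling, and in DKO against Bach1 KO 40.9%, or 57.6%. In DKO against Bach2 KO it was 40.5%, or 20.3% with no scaling and 50.9% with normexp. Relative to the median of all genes, Tlr1 stood 6.82 above it in Bach2 KO and 6.74 with quantile normalization. Tlr2 stood at -1.05 relative to that median, Tlr7 at -0.45 and Cd14 at -0.63, and with quantile normalization these were -0.59, -0.21 and -0.13. With quantile normalization Tlr1 and Tlr2 passed and Tlr7 (adjusted p = 0.255) and Cd14 (0.532) did not. With no scaling Tlr1 and Tlr4 passed. On slide 1 alone, with 2 Bach2 KO and 3 WT mice, the differences were 6.06 for Tlr1, -1.39 for Tlr2, -1.15 for Cd14 and -0.74 for Tlr7, and the first 3 of these passed.

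**Figure D3:**
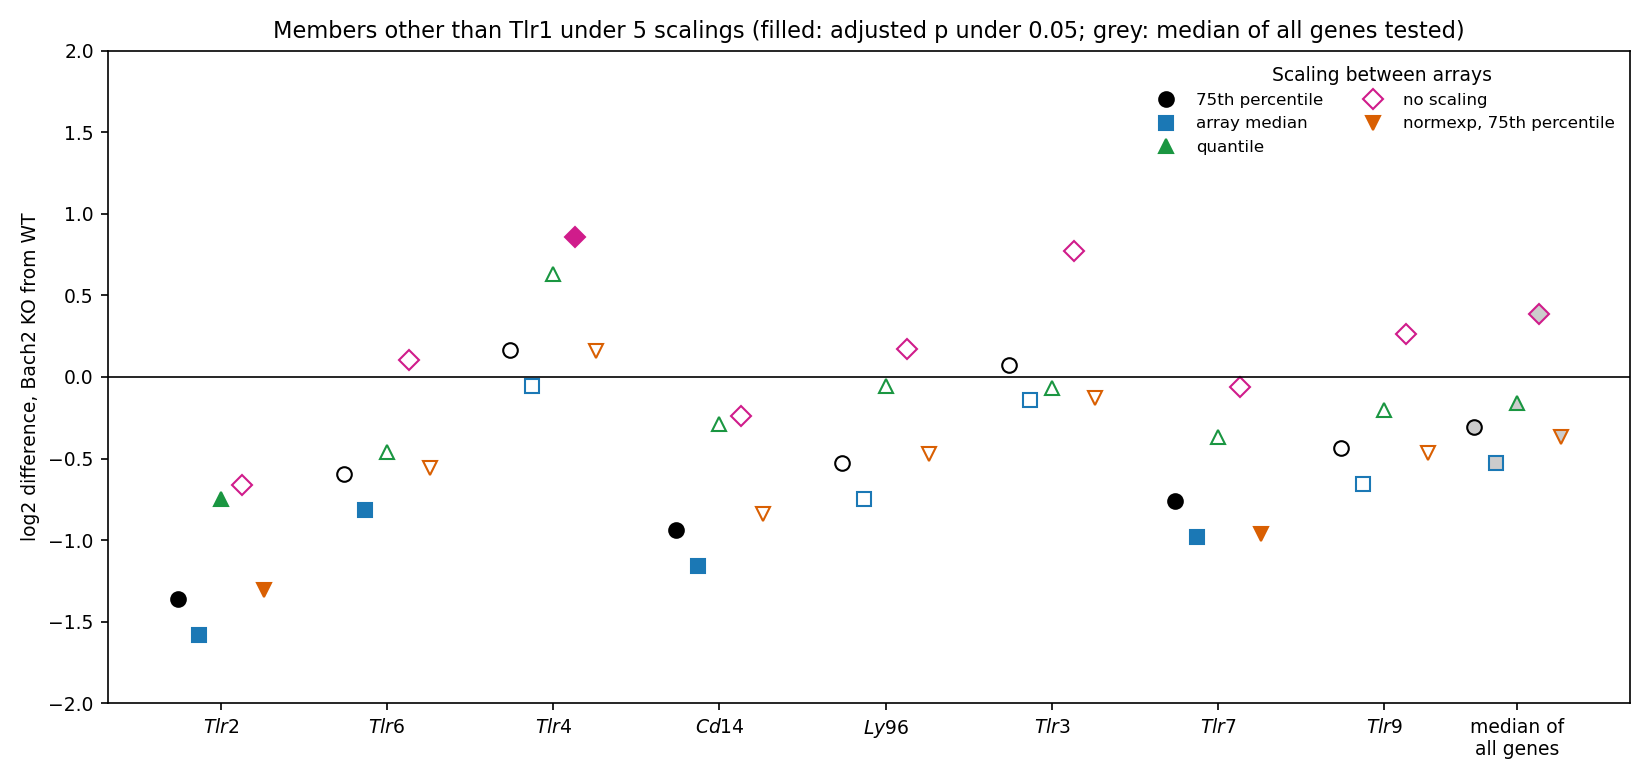
Difference of Bach2 KO from WT (y axis, log2) for the 8 tested members other than Tlr1 under 5 ways of scaling or background correction, and the median over all genes tested (right, grey). Symbols are filled where the adjusted p was under 0.05. Tlr2 (-1.58 to -0.66), Tlr7 (-0.98 to -0.06) and Cd14 (-1.16 to -0.24) are below 0 under all 5. All 8 members, Tlr2 included, shift up with the median of all genes under no scaling.

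The 4 other mouse Toll-like receptor genes were read in the same way. Tlr12, a receptor for a protozoan profilin, was not well above background in any WT or Bach1 KO mouse, was 0.87 ± 0.46 in Bach2 KO and -0.55 ± 0.45 in DKO, and so was at least 118-fold higher in Bach2 KO than in WT (limma adjusted p = 3.91e-07) and at least 44.0-fold higher in DKO (8.89e-07). Tlr12 entered the test only through Bach2 KO and DKO, the genotypes where it is high, as did Lbp, Il1rl1 and Cd209a below. The bounds given here set the bright genotype's mean against, on each dim array, the higher of the lowest level called above background and the probe's own. They hold for the scale used here: with the normexp correction, which adds an offset of 50 to every signal, the fitted fold of Tlr12 was 35.1 in Bach2 KO and 13.7 in DKO, and all bounds given here were larger than the normexp folds. Tlr5, the flagellin receptor, went the other way, from -0.32, -0.64 and -3.04 in WT to -5.20, -7.02 and -6.73 in Bach2 KO, where 1 of 3 arrays was well above background. Tlr5 fell by 4.99 ± 0.77 (limma adjusted p = 0.00058), or by 5.84 without WT replicate 3, a size that rests on dim Bach2 KO arrays, and was at least 18.6-fold lower in DKO than in WT (limma adjusted p = 0.00016). Tlr11, which pairs with Tlr12, was at least 5.03-fold higher in DKO than in Bach1 KO (limma adjusted p = 0.0147). That call was lost without Bach1 KO replicate 1 (0.0525) or DKO replicate 3 (0.0607). Against WT, neither DKO nor Bach2 KO (limma adjusted p = 0.282) passed for Tlr11. Its mean level was -4.88 in WT, -6.80 in Bach1 KO, where no array was well above background, and -3.32 in DKO. Tlr13, a receptor for bacterial ribosomal RNA, was 4.88 ± 0.32 in WT and 4.22 ± 0.51 in Bach2 KO and did not pass (limma adjusted p = 0.0888).

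**Figure D4:**
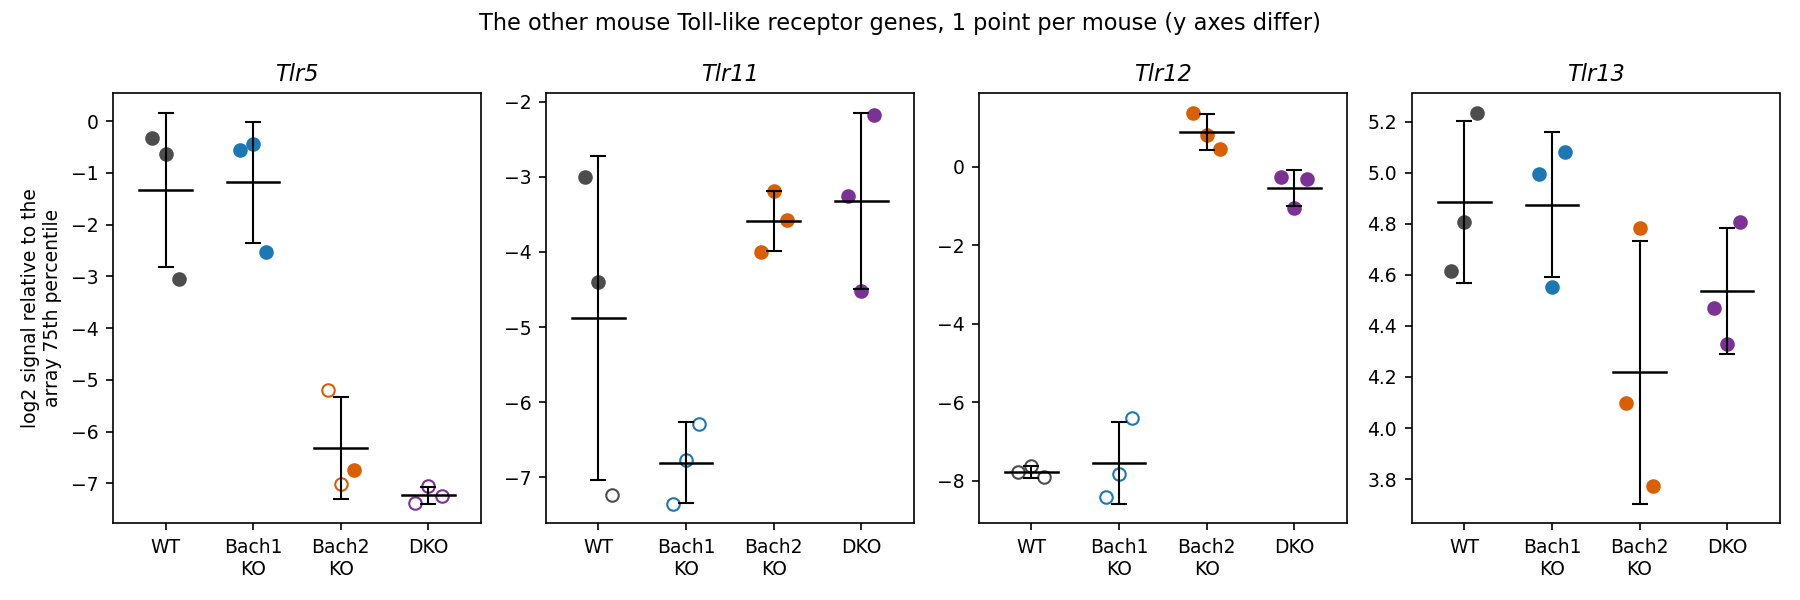
Levels of Tlr5, Tlr11, Tlr12 and Tlr13 (y axis, log2 signal relative to the array's 75th percentile, a separate scale per gene) in the 4 genotypes. Each point is 1 mouse, open where the probe was not well above background, and bars are the mean and SD of 3 mice. Tlr12 is open in all 6 mice with Bach2 and filled in all 6 mice without it.

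Markers of other cells also differed between genotypes, and not all of their sums split the genotypes as the called receptors did. Counts of markers that rose or fell are of Bach2 KO against WT, where 12.3% of all genes tested were higher and 24.8% lower. The summed level of the 14 dendritic cell markers on the array was 80.7 to 163 in WT, 82.5 to 142 in Bach1 KO, 129 to 144 in Bach2 KO and 153 to 170 in DKO. Of the 12 tested, 5 rose in Bach2 KO, with Flt3 higher by 5.01 ± 0.49, Ccr7 by 7.20 ± 0.84 and Cd209a at least 173-fold, while Siglech fell by 0.87 ± 0.28 and Xcr1 was not above background in WT, Bach1 KO or Bach2 KO. B cell markers summed to 6.32 to 8.76 in WT, 6.69 to 7.55 in Bach1 KO, 25.5 to 37.2 in Bach2 KO and 39.1 to 91.1 in DKO. Of the 6 tested, Blnk and Cd79b rose and 1 fell, and Ebf1 was not above background on any array nor Ms4a1 on any DKO array. Monocyte markers summed to 18.1 to 29.7 in WT, 18.7 to 27.1 in Bach1 KO, 6.14 to 8.94 in Bach2 KO and 18.2 to 22.6 in DKO, and in Bach2 KO 3 of 11 rose and 4 fell. Neutrophil markers summed to 99.8 to 142 in WT, 92.0 to 142 in Bach1 KO, 52.2 to 69.1 in Bach2 KO and 73.1 to 120 in DKO (1 of 8 rose, 3 fell). T and NK cell markers summed to 81.4 to 151 in WT, 82.3 to 104 in Bach1 KO, 15.2 to 17.2 in Bach2 KO and 9.82 to 12.5 in DKO (4 of 11 rose, 1 fell). Lung epithelial markers summed to 126 to 159, 101 to 169, 42.3 to 53.6 and 37.8 to 43.4 in the same order (1 of 8 rose, 3 fell). Single genes carried several of these sums: Cd2 made up 96.8% of the T and NK cell sum in WT and 68.0% in Bach2 KO, Blnk 68.3% of the B cell sum in Bach2 KO and 85.6% in DKO, Krt19 75.5% of the epithelial sum in WT, and Csf3r 81.6% of the neutrophil sum in WT. The part of these cell types, and of the lower macrophage markers, in the receptor differences was not tested.

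The rest of the pathway was read from 10 lists with 130 genes, of which 124 were tested. The lists were chosen with earlier results of these data known, so counts above the share of all genes are descriptions only. In Bach2 KO 32 rose and 30 fell (62 of 124, beside 37.1% of all genes), and in DKO against WT 30 rose and 24 fell (54 of 124, beside 27.1% of all genes). Bach1 KO called 0 of the 124 by limma, with 7 at an unadjusted p under 0.05. Of the 62 calls in Bach2 KO, 43 remained with each array left out in turn, and of the 54 in DKO against WT, 33 did. The medians of the lists below stand beside -0.31 over all genes. Calls of Bach2 KO against WT named below passed in each of those fits unless an array is named.

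Of 9 partners and co-receptors of the receptors, 6 rose, 0 fell and 3 did not pass, with a median of 0.92 (12.3% of all genes were higher), and 7 rose with quantile normalization, 6 with no scaling and 4 with the array median. Cd36, a scavenger receptor that aids Tlr2 and Tlr6, rose by 2.50 ± 0.22 (limma adjusted p = 9.52e-06). Itgam, the CD11b chain of complement receptor and a Cd14 partner, rose by 3.69 ± 0.41, and Msr1, a scavenger receptor, by 1.44 ± 0.30. Lbp, which loads lipopolysaccharide onto Cd14, was not above background in WT and was at least 7.68-fold higher in Bach2 KO on the scale used here, and 2.88-fold higher in the normexp fit. Ly86, the MD-1 partner of a Tlr4-like receptor, was 0.83 ± 0.24 higher, a call lost without WT replicate 2 (adjusted p = 0.0526) or Bach2 KO replicate 1 (0.0813). Cd300lb was 0.92 ± 0.27 higher, and not without WT replicate 1 (adjusted p = 0.0697) or Bach2 KO replicate 3 (0.0867). In DKO against WT 5 rose and 1 fell. That one was Hmgb1 (-1.40), named after its value was seen, and the call was lost without WT replicate 1 (adjusted p = 0.0535) or 3 (0.0585) or DKO replicate 1 (0.0655) or 3 (0.0647).

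Chaperones and trafficking factors went both ways, 3 higher and 3 lower of 11, with a median of -0.32 (0.53 with quantile normalization, where 5 rose and 2 fell, and 0.38 with no scaling, where 4 rose and 1 fell). Lrrc59, which helps nucleic acid-sensing receptors leave the endoplasmic reticulum, rose by 1.99 ± 0.40, while Rab7b, which takes Tlr4 and Tlr9 to lysosomes, fell by 1.59 ± 0.35 and Slc15a4, an endolysosomal transporter needed for Tlr7 and Tlr9 signalling, fell by 1.47 ± 0.34. In DKO against WT these differences were 1.10, -0.41 and -0.98 and did not pass. Tmed7 and Ticam2 passed only with both WT replicate 3 and Bach2 KO replicate 3 present (without them, adjusted p = 0.0724 and 0.0758 for Tmed7, and 0.0897 and 0.113 for Ticam2), and the call of Ap3b1 (-0.89) was lost without any of 4 arrays (adjusted p = 0.0529 to 0.084). Of the 5 endosomal proteases that cut the receptors, Lgmn rose by 0.66 ± 0.21 and Ctss fell by 0.71 ± 0.25, but Lgmn lost its call without any of 4 of the 6 arrays and Ctss without any of the 6. With no scaling 4 of 5 rose.

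Among adaptors and kinases next to the receptors, the share called was near the 37.1% of all genes, with 2 of 6 and 6 of 17. Of the 6 adaptors tested, Ticam2 was higher and Scimp, a scaffold that brings kinases to the receptors, fell by 1.28 ± 0.24, while Myd88 itself, at -0.27, did not pass. Among 17 kinases and ubiquitin ligases, 2 rose and 4 fell, with a median of -0.13. Peli1, a ligase of the Irak complex, fell by 2.12 ± 0.30 (limma adjusted p = 0.000285), Irak1 by 1.44 ± 0.29, Btk by 1.09 ± 0.22 and Ube2v1 by 1.06 ± 0.23. Traf6, the ligase downstream of Myd88, rose by 1.99 ± 0.45 and Irak2 by 0.95 ± 0.21. With no scaling 1 of these 17 fell and 2 rose.

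Of 12 IKK subunits and interferon regulatory factors, 3 rose and 3 fell, with a median of 0.18. Irf8, a lineage factor of macrophages and dendritic cells, fell by 1.40 ± 0.21, Irf5, which acts below Myd88, by 1.29 ± 0.26, and Irf3, which acts below Ticam1, by 1.10 ± 0.29. Ikbke, an IKK-related kinase, rose by 2.41 ± 0.57. Tbk1 rose by 1.76 and Irf7 by 1.83, and neither passed without WT replicate 3 (adjusted p = 0.0882 and 0.114) or Bach2 KO replicate 3 (0.109 and 0.159); Irf7 also failed without WT replicate 1 (0.084) or Bach2 KO replicate 1 (0.0837). In DKO against WT 2 rose and 3 fell.

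Of the 21 negative regulators, 5 rose and 6 fell, with a median of -0.08, and 8 rose and 3 fell with no scaling. Tnip3, which restrains NF-kB, rose by 7.16 ± 0.50 (limma adjusted p = 1.58e-06), Socs1 by 4.48 ± 0.33 and Socs3 by 2.13 ± 0.45 (1.54 without WT replicate 2). Il1rl1, the interleukin-33 receptor, which was not above background in WT, was at least 60.9-fold higher. Pdlim2, a ligase that ends NF-kB activity, fell by 3.21 ± 0.40 and the phosphatase gene Ptpn6 by 1.41 ± 0.30. The calls of Sigirr and Rnf216 were lost without WT replicate 1 or Bach2 KO replicate 3, and that of Rnf216 also without Bach2 KO replicate 1. That of Nlrx1 was lost without Bach2 KO replicate 2. In DKO 8 rose and 5 fell against WT.

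Transcripts that receptor ligands induce in macrophages were more often higher than lower: 10 of 21 rose, 1 fell and the median was 1.40, beside 12.3% of all genes higher and 24.8% lower (with no scaling 13 rose and 0 fell, with quantile normalization 9 and 1). Il1a rose by 3.11 ± 0.51 (limma adjusted p = 0.000885), the chemokine gene Ccl3 by 1.75 ± 0.34, Nfkbiz, an inducible NF-kB cofactor, by 2.57 ± 0.59 and Nos2 by 1.46 ± 0.36. Il6, well above background in 2 of 3 WT mice, rose by 6.63 ± 1.24, with 5.38 without WT replicate 3, 8.23 without WT replicate 2 and 6.01 without Bach2 KO replicate 2. Saa3, above background in 1 of 3 WT mice, rose by 5.35 ± 1.09, a size that rests on dim WT arrays and was 4.41 to 7.12 as single WT mice were left out. Of the 10 that rose, Il10 and Cxcl1 lost their calls without any 1 of the WT or Bach2 KO arrays. Acod1 lost its call without WT replicate 1 or any 1 of the Bach2 KO arrays. Tnf, at 0.92, and Il1b, at -0.77, did not pass. The 1 gene that fell was Cxcl10 (-1.92), named after its value was seen, and the call was lost without WT replicate 3 (-1.26, adjusted p = 0.0901), Bach2 KO replicate 1 (0.0614) or Bach2 KO replicate 3 (0.0933), while without WT replicate 1 it was -2.62. Nos2 did not pass in DKO against WT (-0.34, adjusted p = 0.498), and 8 rose and 1 fell there.

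Of 19 other innate sensors, 10 fell and 1 rose, with a median of -0.79, beside 24.8% of all genes lower and 12.3% higher. In this list 6 fell and 2 rose with quantile normalization and 3 and 2 with no scaling. Fpr1 and Fpr2, the formyl peptide receptors, fell by 5.64 ± 0.30 and 4.70 ± 0.31 in Bach2 KO and stood at -8.51 and -7.27 in DKO against WT. Clec4n, or Dectin-2, fell by 2.45 ± 0.34, Mavs, the adaptor of cytosolic RNA sensors, by 1.53 ± 0.22 and Nod1, a sensor of bacterial peptidoglycan, by 1.49 ± 0.24. Of the 10 that fell, Ifih1, Sting1 and Cgas each lost their call without WT replicate 3 or without Bach2 KO replicate 3. Ifih1 and Sting1 also lost theirs without other single arrays. Cd209a, counted above among the dendritic cell markers, is the sensor that rose. With WT replicate 3 and Bach1 KO replicate 3 both left out, 6 of the partners rose and 0 fell, 11 of the ligand-induced transcripts rose and 0 fell, 2 of the other sensors rose and 7 fell, and 1 of the IKK and interferon regulatory factor list rose and 2 fell. On slide 1 alone the same 4 lists gave 5 and 0, 6 and 0, 1 and 6, and 0 and 3.

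**Figure D5:**
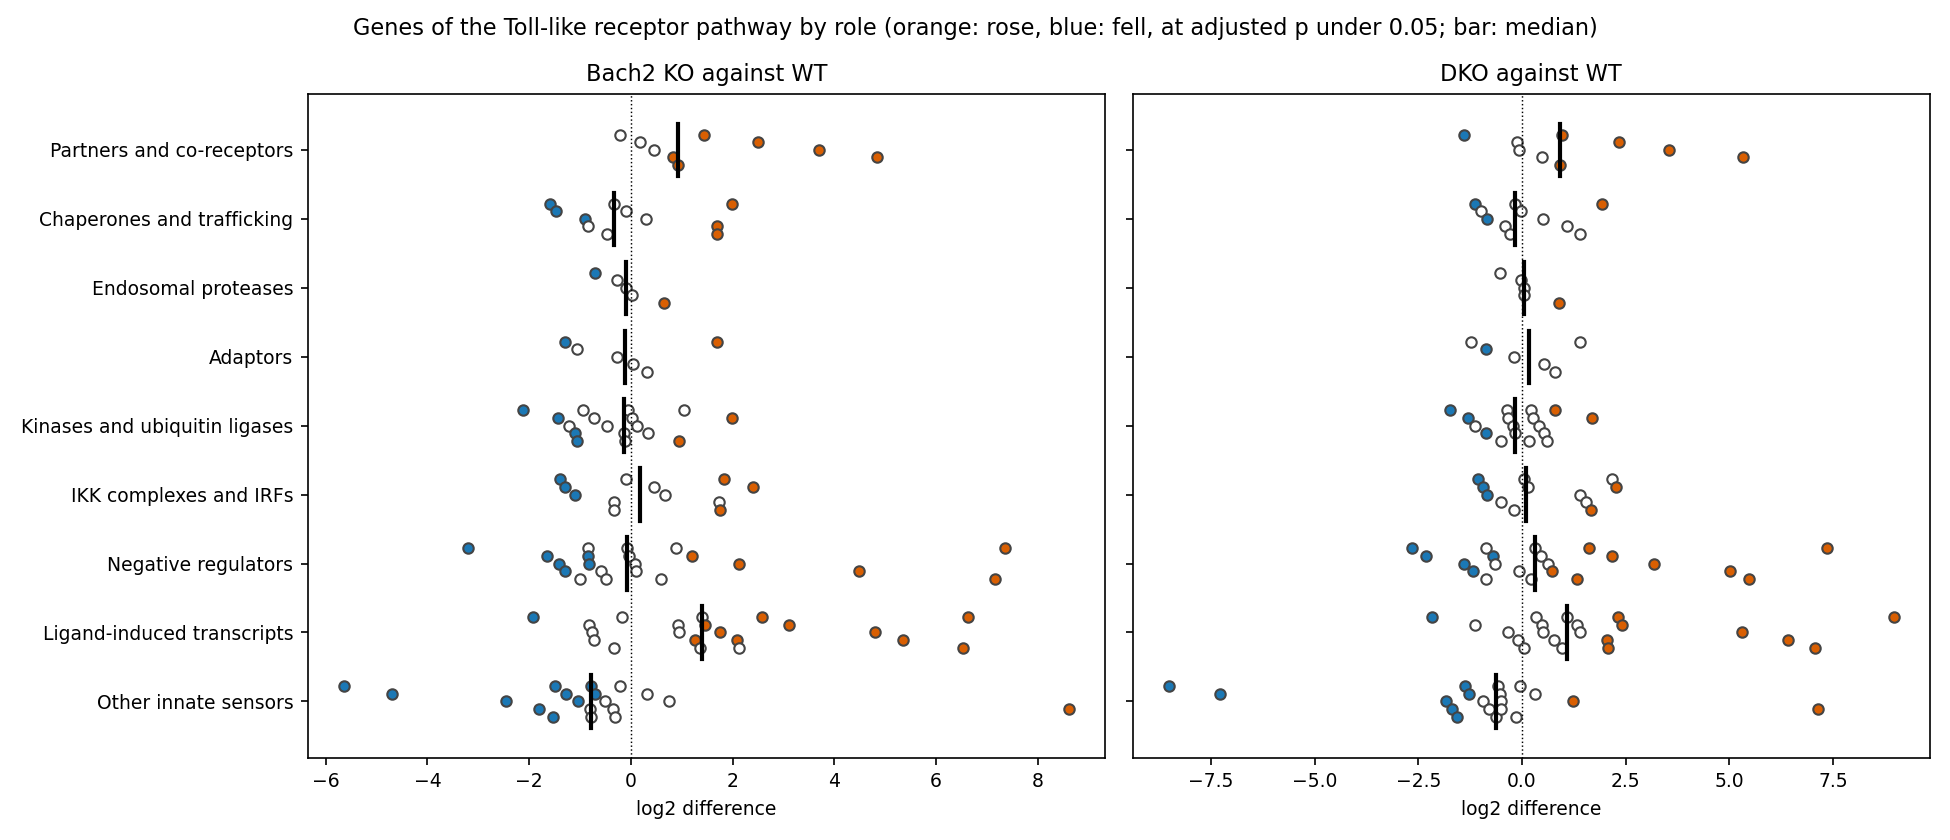
Differences (x axis, log2) of the tested genes of 9 lists of the pathway, by role (y axis), in Bach2 KO and in DKO against WT. Each point is 1 gene, orange where it rose and blue where it fell at an adjusted p under 0.05, and the bar is the list's median. In Bach2 KO the median is 1.40 for ligand-induced transcripts and -0.79 for other innate sensors, beside -0.31 for all genes.

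The named genes with profiles most like those of the called members were ranked among 13162 by the root mean square of the log2 difference over the 12 arrays, each gene centred on its own mean. Among the genes near Tlr1 were Pla2g5 at 0.59 and Ceacam15 at 0.60. For Tlr2 they were Hsd3b7 at 0.14, Abhd17a at 0.14 and Bckdha at 0.15, for Tlr7 Med21 at 0.16, Sycn at 0.16 and Ttf2 at 0.18, and for Cd14 Cyp4f13 at 0.21, Ier2 at 0.21 and Gtf2h4 at 0.25. These distances are descriptions over 12 arrays that share genotype, slide and scaling.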

How the data were processed

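RNA of sorted alveolar macrophages from 12 mice was read on 1-colour Agilent arrays, 1 per mouse. The deposited scanner files hold processed signal intensity, background-corrected by Agilent Feature Extraction 10.7.3.1 per the file headers (9.1 per the submitters' processing notes). The deposited series matrix holds log2 values centred on each gene's median, which the file does not state. Of its 20850 probes, 20802 were found among the scanner probes. Over these, its values correlated with the centred scanner values at r of 0.99993 to 0.99997 per array. The matrix had column medians of 0.09, 0.01 and 0.25 in WT, 0.19, 0.08 and 0.19 in Bach1 KO, -0.04, -0.10 and -0.10 in Bach2 KO and -0.25, -0.17 and -0.11 in DKO. It served as an alternative only.

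From the intensity, log2 values minus each array's 75th percentile over non-control spots were taken, outlier spots (136 to 733 per array) were left out, spots of one probe were averaged and the brightest probe of a gene was used. Probes were named through their accession in RefSeq's table of GRCm38.p6, and 26413 of 55681 probes were named by 1 gene. Of all probes, 30854 passed the filter on dim probes (1 or more genotypes with all 3 of their arrays well above background), leaving 23109 genes or transcripts (13801 named). They were fitted with limma 3.58.1 (R 4.3.3), 1 mean per genotype over all 12 arrays, eBayes with a trend, and p-values were adjusted by Benjamini-Hochberg over all of them. The fit was tested on simulated data. The number of arrays limits the precision. Each p-value sets a difference against the spread between arrays of 1 genotype, in which mouse, amplification and array are not separated. In comparisons of DKO with another genotype, slide and scan day are part of the difference and not of that spread. Alternatives varied scaling, background correction, filter, probe choice, variance model, blocks and thresholds, and left out single arrays.

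All members are named, and of each pathway list up to 6 genes that passed, by smallest adjusted p in Bach2 KO against WT. Further list genes are named where a call was lost without single arrays. Members and lists were chosen with earlier results of these data known. Promoter sequences are RefSeq's, and the arrays' own coordinates, of another build, were not used. A gene among those nearest to Tlr1 and a B cell marker are not reported here by name.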

Additional observations from a re-analysis of the deposited data

Results flagged for a closer look

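Of the 124 tested genes of the pathway lists, 2 (1.61%) differed in the size of one loss depending on the other, beside 0.684% of all genes. For Fpr1, a receptor for formylated bacterial peptides, DKO minus Bach1 KO minus Bach2 KO plus WT was -2.88 ± 0.42 (SE, n = 3 mice per genotype, limma adjusted p = 0.00983). For its relative Fpr2 the same term was -2.50 ± 0.43 (limma adjusted p = 0.0244), so both were lower in DKO than the sum of the single losses gives. The call of Fpr2 was lost without Bach1 KO replicate 1 (adjusted p = 0.0633) or 3 (0.0557), Bach2 KO replicate 1 (0.0781) or DKO replicate 1 (0.0635) or 2 (0.0529). The DKO arrays share a slide and a scan day that no other genotype has, and the term cannot be told apart from them.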

How the results depend on the processing

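Of the 9 members, 4 passed in Bach2 KO against WT, and 2 passed with quantile normalization, with no scaling, with only the arrays of the groups compared, at an adjusted p under 0.01 and with a fold of at least 2. With array quality weights 5 passed in DKO against WT, 5 in DKO against Bach1 KO and 1 in DKO against Bach2 KO, in place of 3, 3 and 0. Leaving out single arrays gave 2 to 4 members in Bach2 KO against WT (2 without Bach2 KO replicate 1), 3 to 4 in DKO against WT, 3 to 4 in DKO against Bach1 KO and 0 in the other comparisons. The cause of these changes was not tested, beyond the stricter threshold or fewer samples by construction. With the replicate number as a block, 0, 3, 3, 3, 0 and 0 members passed in Bach1 KO against WT, Bach2 KO against WT, DKO against WT, DKO against Bach1 KO, DKO against Bach2 KO and the interaction. Cd14 lost its call there (adjusted p = 0.0546) and no other call changed. Same-numbered arrays correlated at -0.14 to 0.39 after removing genotype means, and 6 of 12 correlated best with their own number, so the numbers were not taken to pair the mice over all genotypes. Between Bach2 KO and DKO all 3 same-numbered pairs correlated at just above 0.1 (0.116, 0.123 and 0.118), and there 0 members passed with or without the block. With slide as a random block (correlation 0.0297) the counts were 0, 4, 3, 3, 0 and 0, and slide 1 alone gave 0 and 3 for the comparisons it holds. Only Bach2 KO had arrays on more than 1 slide, so the random block cannot separate DKO from its slide. Tlr1 and Tlr3 had no value when all 12 arrays had to be above background. The normexp correction planned on mean signals was not run, because the files hold median signals, and normexp on those was chosen after seeing the data, as was leaving out WT replicate 3 together with Bach1 KO replicate 3. Signal over background limits Tlr1, Tlr3, Tlr8, Tlr5, Tlr11 and Tlr12, whose low levels are near the background limit of each array (-7.04 to -4.35).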
